A study of Mus musculus with 13 samples.

Results

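The 10 genes studied here belong to neutrophils or to the S100 family of calcium-binding proteins, and were followed across the injured muscle of mice given dexamethasone or saline. They were the rows of the deposited expression table named S100a8, S100a9, S100a4, S100a6, S100a11, Csf3r, Cxcr2, Mmp8, Retnlg and Mcemp1, and all 10 were measured among 14911 genes. S100a8 and S100a9 encode the subunits of calprotectin, an alarmin that fills the cytosol of neutrophils and is released when these cells act in damaged tissue. Neutrophils are made in bone marrow, where precursors load granules in steps, and enter injured muscle early, guided by chemokines. S100a4, S100a6 and S100a11 are made by many cell types, among them fibroblasts, macrophages and endothelium.

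The study took whole hamstring muscle of female C57BL/6 mice at day 4 after an intramuscular injection of 0.32 mg/kg cardiotoxin, which comes from snake venom and kills muscle fibres. From injury on, 9 mice received dexamethasone, a synthetic glucocorticoid, at 10 mg/kg once daily into the peritoneum, and 4 mice received saline by the same route. All 13 mice carried the cardiotoxin injury, and each gave 1 library. By micro computed tomography, every dexamethasone mouse had bone in its injured muscle, at 2.40 ± 5.42 mm3 (as the submitters give it, without saying what the second value is), and the submitters left out a further saline mouse that had also formed bone, so the drug and bone formation cannot be told apart. Saline libraries keep the mouse numbers 1, 2, 3 and 5, and dexamethasone libraries the numbers 1 to 9.

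Dexamethasone libraries held 28021111 to 34942266 reads over the measured genes and saline libraries 25531487 to 32537345. Mature muscle fibre markers, summed over 12 genes, stood at 16.44 to 17.03 log2 CPM in dexamethasone libraries and at 17.06 to 17.63 in saline libraries, so fibre transcripts were abundant in every library. Here log2 CPM is the base-2 logarithm of CPM, the read count scaled by an effective library size. That size, recovered from the values, differed from the reads over measured genes. It was 25724674 against 29349446 reads in saline library 1, and 33453915 against 30396789 in dexamethasone library 2. A fold change on the log2 scale is the mean of dexamethasone libraries minus the mean of saline libraries. Saline library 3 stood apart from the others in several neutrophil genes. It was the highest of all 13 libraries for 4 of the 10 genes (S100a8, S100a9, Mmp8 and Retnlg) and the highest of the 4 saline libraries for 6, with Cxcr2 and Mcemp1 added. Over all genes, 7.44% were highest of all 13 libraries in that library, and the share highest of the 4 saline libraries was not counted. Each result is therefore given with and without it. Leaving out the highest saline library raises a difference of dexamethasone minus saline by construction, so values without it describe how far a result rests on 1 mouse and are not a separate test.

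In all 13 libraries, 4 of the 10 genes were higher under dexamethasone (S100a4, S100a6, S100a11 and Mmp8), 2 were lower (Csf3r and Retnlg), and 4 did not pass (S100a8, S100a9, Cxcr2 and Mcemp1) at an adjusted p of 0.05 (limma, Benjamini-Hochberg over all genes). Over all 14911 genes 48.1% passed, 25.2% higher and 22.9% lower. Without saline library 3, 7 were higher, with S100a8, S100a9 and Mcemp1 added, 0 were lower by limma, and 43% of all genes passed, 22.8% higher and 20.2% lower. The 2 genes that were lower with all libraries kept negative differences there, with unadjusted exact permutation p of 0.0409 for Csf3r and 0.132 for Retnlg. The median log2 fold change of the 10 genes was 0.41 with all libraries and 0.68 without saline library 3, where the median of all genes was 0.01 in both. The 10 genes were chosen with such results known, and so small a number says little beyond each gene's own values.

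**Figure D1:**
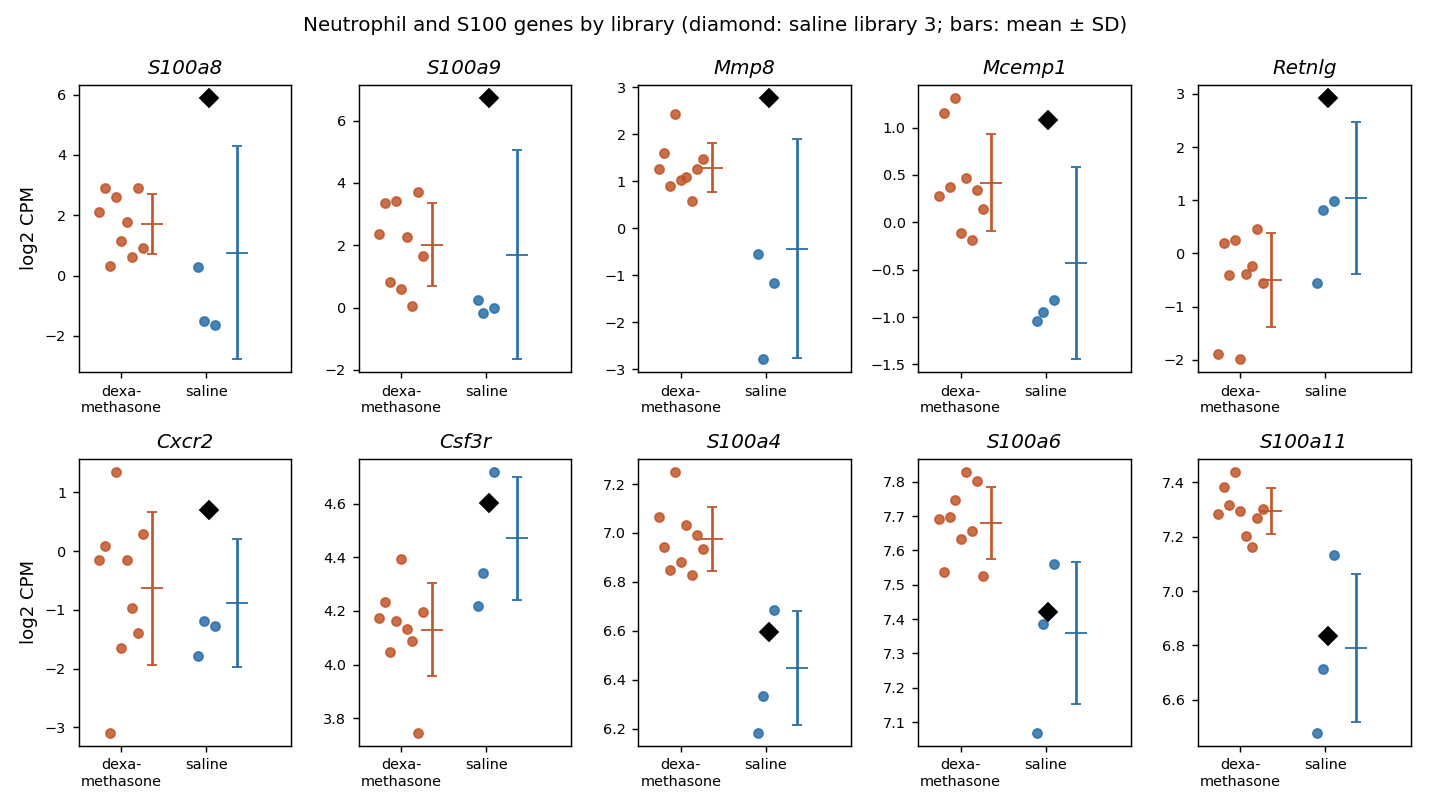
Expression of the 10 genes in each library, in log2 CPM, with dexamethasone (orange, 9 libraries) to the left of saline (blue, 4 libraries), each with its mean ± SD, on axes that differ between genes and need not start at 0. The black diamond is saline library 3, which tops all 13 libraries for S100a8, S100a9, Mmp8 and Retnlg and lies among the other saline libraries for S100a4, S100a6 and S100a11.

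S100a8 (mm10 chromosome 3, 90669071 to 90670034, plus strand) encodes the smaller calprotectin subunit. It stood between 0.33 and 2.90 log2 CPM in dexamethasone libraries, with a median of 1.78, and at 0.29, -1.50, 5.89 and -1.63 in saline libraries 1, 2, 3 and 5. All 9 dexamethasone libraries were above saline libraries 1, 2 and 5 and below saline library 3. In reads, this was 37 to 249 in dexamethasone libraries, and 31, 8, 1689 and 10 in saline libraries. The mean was 1.70 ± 0.99 log2 CPM under dexamethasone and 0.76 ± 3.53 under saline (SD, n = 9 and 4). The log2 fold change of 0.94 ± 1.02 (SE) did not pass (adjusted p of 0.470, limma), with a 95% interval from -1.22 to 3.09. Without saline library 3 it was 2.65 ± 0.56, or 6.26-fold higher (adjusted p of 0.00163, limma). The direction also turned on how libraries were averaged. As plain CPM the mean was 3.96 under dexamethasone and 15.3 under saline, of which 96.9% came from saline library 3, and the mean of the other 3 saline libraries was 0.633.

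S100a9 (chromosome 3, 90692630 to 90695721, minus strand) encodes the larger calprotectin subunit. Dexamethasone libraries ran from 0.05 to 3.70 log2 CPM with a median of 2.25, and saline libraries 1, 2, 3 and 5 held 0.25, -0.16, 6.73 and -0.00. Of the 9 dexamethasone libraries, 8 were above saline libraries 1, 2 and 5, dexamethasone library 7 was not, and all 9 were below saline library 3. Reads numbered 33 to 393 in dexamethasone libraries, and 30, 21, 3028 and 32 in saline libraries. The log2 fold change was 0.32 ± 1.05 (SE, 95% interval -1.90 to 2.54) and did not pass, with an adjusted p of 0.827 (limma). It was 1.99 ± 0.66 without saline library 3, or 3.98-fold (adjusted p of 0.0239, limma), but the exact rank sum test (adjusted p of 0.0512) and voom (adjusted p of 0.163) did not call it without that library. That rank sum test could call no gene whose groups overlapped, as those of S100a9 did through dexamethasone library 7. By plain CPM its mean was 5.70 in dexamethasone libraries and 27.3 in saline libraries, of which 97.2% came from saline library 3. In whole tissue, a difference in the number of neutrophils and a difference in these transcripts per cell cannot be told apart.

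The calprotectin genes kept close company. Per kilobase of exon, the log2 ratio of S100a9 to S100a8 ran from -0.15 to 1.22 in dexamethasone libraries, with a median of 0.88, and from 0.36 to 2.04 in saline libraries, with 1.25 in saline library 3. Saline library 3 thus held both transcripts in a ratio inside the saline range, while its level of each was far above it. Among dexamethasone libraries the same 3, numbers 2, 4 and 8, led for both genes.

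Promoter windows of the calprotectin genes and of the neighbouring S100a4 and S100a6 are shown because the 4 genes lie close together on chromosome 3, and the values of the calprotectin pair depended on saline library 3 while the calls of the other pair did not change without it. The sequences are RefSeq's on GRCm38.p6, from 250 bases before the annotated start to 30 bases after it, and run 5′ to 3′ on the gene's strand. S100a8 is chr3:90668821-90669100 (plus), S100a9 is chr3:90695692-90695971 (minus), S100a4 is chr3:90603520-90603799 (plus) and S100a6 is chr3:90612644-90612923 (plus). Capitals mark matches on either strand. The motifs searched were the core TATAAA of the element that positions the transcription start, the C/EBP core TTGCNNAA, the hexamer AGAACA that one glucocorticoid receptor molecule contacts, the AP-1 site TGANTCA and the STAT site TTCNNNGAA.
S100a8: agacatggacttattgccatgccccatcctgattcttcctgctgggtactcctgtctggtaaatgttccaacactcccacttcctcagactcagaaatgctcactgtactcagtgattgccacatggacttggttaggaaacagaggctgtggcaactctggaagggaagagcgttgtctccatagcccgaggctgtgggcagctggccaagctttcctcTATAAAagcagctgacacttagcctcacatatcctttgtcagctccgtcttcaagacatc
S100a9: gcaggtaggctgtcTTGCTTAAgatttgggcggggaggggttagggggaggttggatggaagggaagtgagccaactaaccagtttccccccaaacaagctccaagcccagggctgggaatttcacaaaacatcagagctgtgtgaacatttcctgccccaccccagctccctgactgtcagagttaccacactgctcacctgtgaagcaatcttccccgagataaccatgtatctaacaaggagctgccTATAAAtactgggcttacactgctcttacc
S100a4: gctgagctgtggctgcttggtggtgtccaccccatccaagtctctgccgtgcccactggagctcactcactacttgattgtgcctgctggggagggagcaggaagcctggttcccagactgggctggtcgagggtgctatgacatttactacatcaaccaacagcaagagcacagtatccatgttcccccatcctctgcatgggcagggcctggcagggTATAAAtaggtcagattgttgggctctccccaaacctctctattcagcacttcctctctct
S100a6: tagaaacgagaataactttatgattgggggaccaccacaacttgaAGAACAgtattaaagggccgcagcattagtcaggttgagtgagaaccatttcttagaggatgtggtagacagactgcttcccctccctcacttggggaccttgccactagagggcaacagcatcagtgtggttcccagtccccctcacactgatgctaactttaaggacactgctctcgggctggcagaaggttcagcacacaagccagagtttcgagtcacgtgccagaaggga

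The letters TATAAA lay 30 bases before the start of S100a8 and 31 bases before that of S100a4, and began at base 1 of the S100a9 transcript as annotated. Of 27025 RefSeq promoter windows of 300 bases, 14.1% held this core, and 7.73% of the 11746 whose genes were measured. Over the 10 genes it was found in 4. The other was Mmp8, where it lay on the opposite strand, as TTTATA, from 3 bases before the start and across it. The hexamer AGAACA was present in S100a6, 205 bases before the start, and in Cxcr2, and in 19.2% of all windows and 12.9% of those of measured genes. The full palindrome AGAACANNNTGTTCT, which holds the hexamer on each strand, was in 0 of the 27025 windows. A C/EBP core was in S100a9, Mmp8 and Retnlg and in 10.7% of all windows, an AP-1 match in S100a11 and Mcemp1 and in 7.91%, and a STAT match in 0 of the 10 and in 8.37%. Among windows of measured genes the shares, in that order, were 8.58%, 5.36% and 6.82%. No 2 matches in the windows of the 10 genes overlapped. These matches describe letters and are not evidence of binding.

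An enzyme and a surface protein of myeloid cells behaved much as calprotectin did. Mmp8 (chromosome 9, 7558429 to 7568486), the neutrophil collagenase, stood at 0.58 to 2.43 log2 CPM in dexamethasone libraries (median 1.25) and at -0.56, -2.78, 2.77 and -1.17 in saline libraries 1, 2, 3 and 5. Every dexamethasone library was above saline libraries 1, 2 and 5 and below saline library 3, so the groups overlapped through that library alone. Mmp8 rose by 1.72 ± 0.66 on the log2 scale (SE), or 3.30-fold, with an adjusted p of 0.0400 (limma). That call was narrow: it was lost without any one of 9 libraries, namely dexamethasone 1, 2, 4, 6, 8 or 9 or saline 1, 2 or 5, with log2 fold changes from 0.94 to 2.79 over all 13 omissions. It was also lost with log2 of CPM plus 1, where the fold change was 0.69. It was 2.79 ± 0.40, or 6.92-fold, without saline library 3 (adjusted p of 8.3e-05, limma).

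Mcemp1 (chromosome 8, 3665762 to 3668905), which encodes a membrane protein of mast cells and other myeloid cells, held -0.19 to 1.31 log2 CPM in dexamethasone libraries (median 0.34) and -1.04, -0.95, 1.08 and -0.82 in saline libraries 1, 2, 3 and 5. Dexamethasone libraries 2 and 4 were above saline library 3, and all 9 were above the other saline libraries. Its log2 fold change was 0.85 ± 0.36 (adjusted p of 0.0658, limma), and 1.35 ± 0.29 without saline library 3 (adjusted p of 0.0018, limma), or 2.55-fold. The exact permutation test of this gene alone gave a two-sided p of 0.0671 with all libraries and 0.00455 without saline library 3, the smallest p that 220 splits can give.

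**Figure D2:**
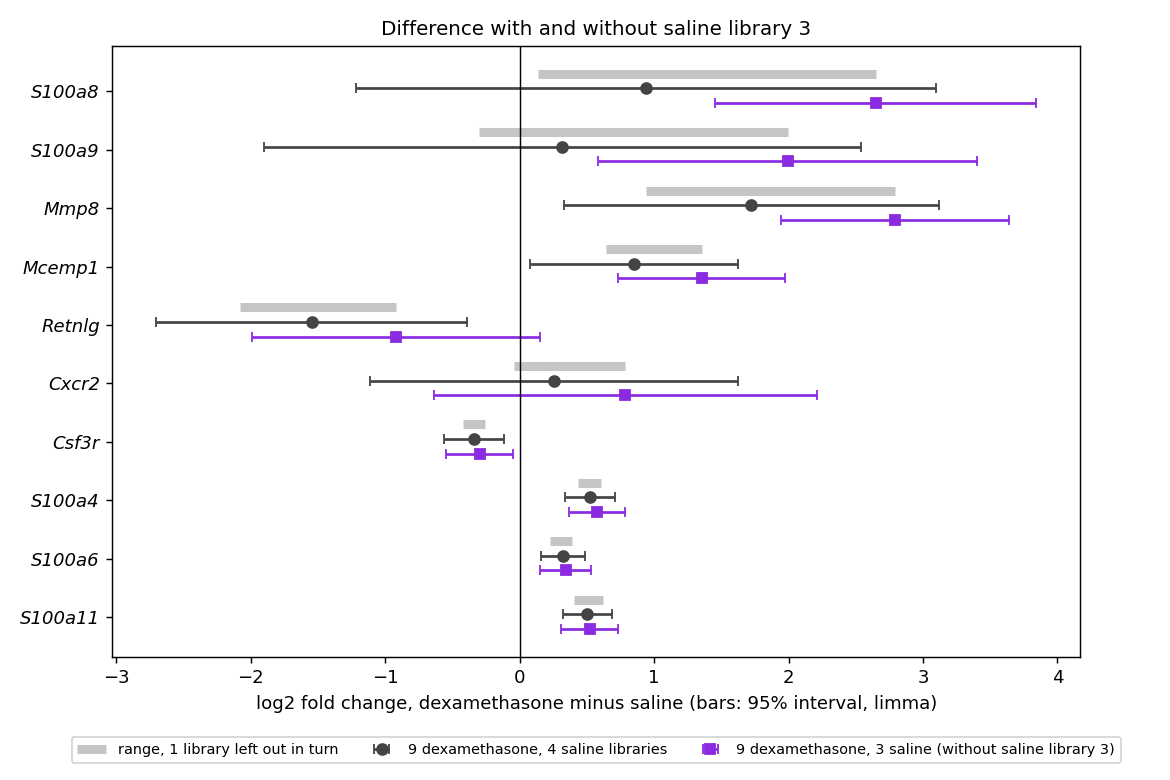
Log2 fold change of dexamethasone minus saline for each gene with its 95% interval from limma, over 9 dexamethasone and 4 saline libraries (grey circles) and without saline library 3 (purple squares), with the range over the omission of each library in turn (grey bars). S100a8 moved to 2.65 and S100a9 to 1.99 without saline library 3, whereas S100a4, S100a6 and S100a11 moved by less than their intervals.

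Retnlg differed from the genes above in direction. Retnlg (chromosome 16, 48872608 to 48874498) encodes resistin-like gamma, a secreted protein of mouse neutrophils and bone marrow. It held -1.98 to 0.45 log2 CPM in dexamethasone libraries (median -0.38) and -0.56, 0.82, 2.92 and 0.99 in saline libraries 1, 2, 3 and 5. All 9 dexamethasone libraries lay below saline libraries 2, 3 and 5, and 7 of them above saline library 1. It was 2.92-fold lower with all libraries (log2 fold change of -1.55 ± 0.55, adjusted p of 0.0281, limma). Without saline library 3 the difference was -0.92 ± 0.50 and did not pass (adjusted p of 0.153, limma), and it did not pass without saline library 5 either. At 7 to 41 reads in dexamethasone libraries and 17 to 216 in saline libraries, it was among the shallowest of the 10.

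The receptors gave smaller or wider differences. Csf3r (chromosome 4, 126023441 to 126044975), the receptor for the growth factor G-CSF, held 3.75 to 4.39 log2 CPM in dexamethasone libraries (median 4.16) and 4.22, 4.34, 4.60 and 4.72 in saline libraries 1, 2, 3 and 5. Of the 9 dexamethasone libraries 7 were below every saline library, and numbers 2 and 5 were not. Csf3r was 1.27-fold lower (log2 fold change of -0.34 ± 0.10, adjusted p of 0.0133, limma). The difference of -0.30 ± 0.12 without saline library 3 fell just short (adjusted p of 0.0518, limma), and the call was lost without saline library 5 too, so it does not rest on the high library alone. Cxcr2 (chromosome 1, 74153994 to 74161246), the receptor for neutrophil-attracting CXC chemokines, held -3.09 to 1.35 log2 CPM in dexamethasone libraries (median -0.15) and -1.78, -1.20, 0.70 and -1.27 in saline libraries. With 3 to 71 reads per dexamethasone library and 7 to 46 per saline library the groups overlapped widely, and the log2 fold change of 0.26 ± 0.65 did not pass with all libraries (adjusted p of 0.773, limma), nor did 0.79 ± 0.67 without saline library 3 (adjusted p of 0.365, limma). Its 95% interval with all libraries, -1.11 to 1.62, allows changes of more than 1 on the log2 scale either way.

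S100a4, S100a6 and S100a11 rose with little spread, and their values hardly depended on saline library 3. S100a4 (chromosome 3, 90603770 to 90606045), a regulator of cell motility, held 6.83 to 7.25 log2 CPM in dexamethasone libraries (median 6.94) and 6.18, 6.33, 6.59 and 6.69 in saline libraries 1, 2, 3 and 5. S100a11 (chromosome 3, 93520496 to 93526288), a partner of annexin A1, held 7.16 to 7.44 in dexamethasone libraries (median 7.29) and 6.48, 6.71, 6.84 and 7.13 in saline libraries. For both, all 9 dexamethasone libraries were above every saline library, as in 12.9% of all genes, and 12.9% had all 9 below. Without saline library 3, groups separated in that way, with all 9 dexamethasone libraries above, for S100a8, Mmp8, Mcemp1, S100a4 and S100a11, beside 14.2% of all genes, and with all 9 below for none of the 10, beside 14.3%. S100a6 (chromosome 3, 90612894 to 90614414), known as calcyclin, held 7.52 to 7.83 in dexamethasone libraries (median 7.69) and 7.07, 7.39, 7.42 and 7.56 in saline libraries. Here 7 of 9 dexamethasone libraries were above every saline library, numbers 2 and 9 being below saline library 5. Among saline libraries, number 3 was neither highest nor lowest for any of these genes.

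S100a4 was 1.44-fold higher (log2 fold change of 0.53 ± 0.09, SE, adjusted p of 0.00018, limma), S100a11 1.42-fold (0.50 ± 0.09, adjusted p of 0.0002, limma) and S100a6 1.25-fold (0.32 ± 0.08, adjusted p of 0.0031, limma). The log2 fold changes in that order were 0.57, 0.52 and 0.34 without saline library 3. Over the omission of each library in turn they ran from 0.44 to 0.60 for S100a4, 0.40 to 0.62 for S100a11 and 0.22 to 0.39 for S100a6, and each stayed past the threshold. These genes had 3436 to 7237 reads in each dexamethasone library and 1870 to 6148 in each saline library. The calprotectin genes had fewer reads than all 3 in every library but saline library 3, where S100a9, at 3028 reads, was above S100a4, at 2758. Per kilobase of exon, S100a11 was at a median of 307 CPM in dexamethasone libraries and 214 in saline libraries, S100a4 at 211 and 152, S100a6 at 151 and 124, S100a9 at 9.13 and 2.09, and S100a8 at 4.95 and 1.14. By these medians the widely made S100 transcripts were the more abundant ones in both groups. In saline library 3 the order differed below S100a11, which stood at 7.80 log2 CPM per kilobase, with S100a9 at 7.67, S100a4 at 7.37, S100a6 at 6.97 and S100a8 at 6.41.

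In the authors' deposited table, S100a4, S100a6 and S100a11 were higher and Csf3r and Retnlg lower at an adjusted p of 0.05, and Mmp8 was not called, with an adjusted p of 0.0633. Mmp8 was the 1 gene of the 10 whose call there differed from the one given here.

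Saline library 3 carried more than calprotectin. Ngp, a granule protein of neutrophil precursors, ran from -3.70 to 3.23 log2 CPM in dexamethasone libraries and from -2.78 to 0.58 in saline libraries 1, 2 and 5, and stood at 6.70 in saline library 3. Camp, another granule protein, ran from -3.58 to 1.76 in dexamethasone libraries and from -4.44 to -1.29 in saline libraries 1, 2 and 5, and stood at 4.62 in saline library 3. Both were thus higher in that library than in any other. Mpo and Elane, made at the earliest granule stage, had at most 91 and 41 reads in any dexamethasone library, at most 7 and 4 in saline libraries 1, 2 and 5, and 949 and 284 in saline library 3, with 0 reads in at least 1 library of each group. Slc4a1, the anion exchanger of red cells and their precursors, had 1 to 107 reads in dexamethasone libraries, 1 to 29 in saline libraries 1, 2 and 5, and 674 in saline library 3. The gene furthest above the other saline libraries was Ibsp, which encodes bone sialoprotein, with 0 to 26 reads in dexamethasone libraries, 0 to 1 in saline libraries 1, 2 and 5, and 327 in saline library 3. The haemoglobin gene Hba-a2, in contrast, was at 5.25 log2 CPM in saline library 3, inside the range of saline libraries 1, 2 and 5 (3.51 to 5.92). Bone genes other than Ibsp stood out less: Sp7, Alpl, Dmp1 and Phex were at 2.67, 3.33, 1.91 and 0.19 log2 CPM in saline library 3. Their highest values in any other library were 2.20, 3.23, 1.81 and 0.21. The genes named here were chosen after their values were seen, and their part in the results was not tested. The labels do not say whether any bone or marrow was taken with this muscle, which would change what its S100a8, S100a9 and granule gene values stand for.

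**Figure D3:**
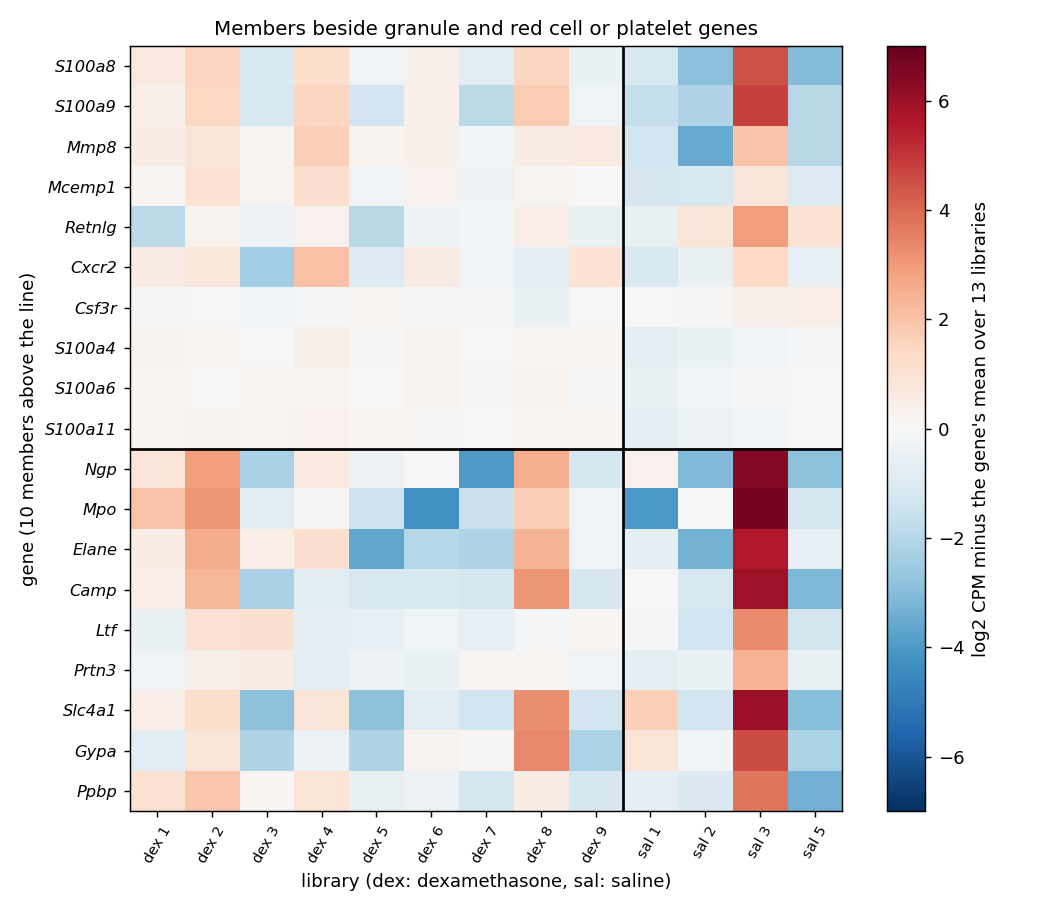
Log2 CPM of each gene minus its mean over 13 libraries, with dexamethasone libraries (dex) to the left of saline libraries (sal), the 10 genes above the line and granule, red cell and platelet genes below it. Saline library 3 is high for S100a8, S100a9, Retnlg and every gene below the line, and dexamethasone libraries 2 and 8 are the next highest for Camp and Ngp.

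Among dexamethasone libraries, Ngp was highest in numbers 2 and 8, at 3.23 and 2.84 log2 CPM, which also held the most S100a8. Dexamethasone library 4 was the highest of the 9 for 5 of the 10 genes, S100a4, S100a11, Cxcr2, Mmp8 and Mcemp1. The share of all genes highest in that library was not counted, so this count does not set these genes apart. Leaving out saline library 3 together with dexamethasone libraries 2 and 8, S100a8 was 2.31 ± 0.51 higher on the log2 scale (adjusted p of 0.0036, limma) and S100a9 1.56 ± 0.57 (adjusted p of 0.0455, limma). Leaving out saline library 3 together with dexamethasone library 4, these were 2.53 ± 0.55 and 1.82 ± 0.63.

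**Figure D4:**
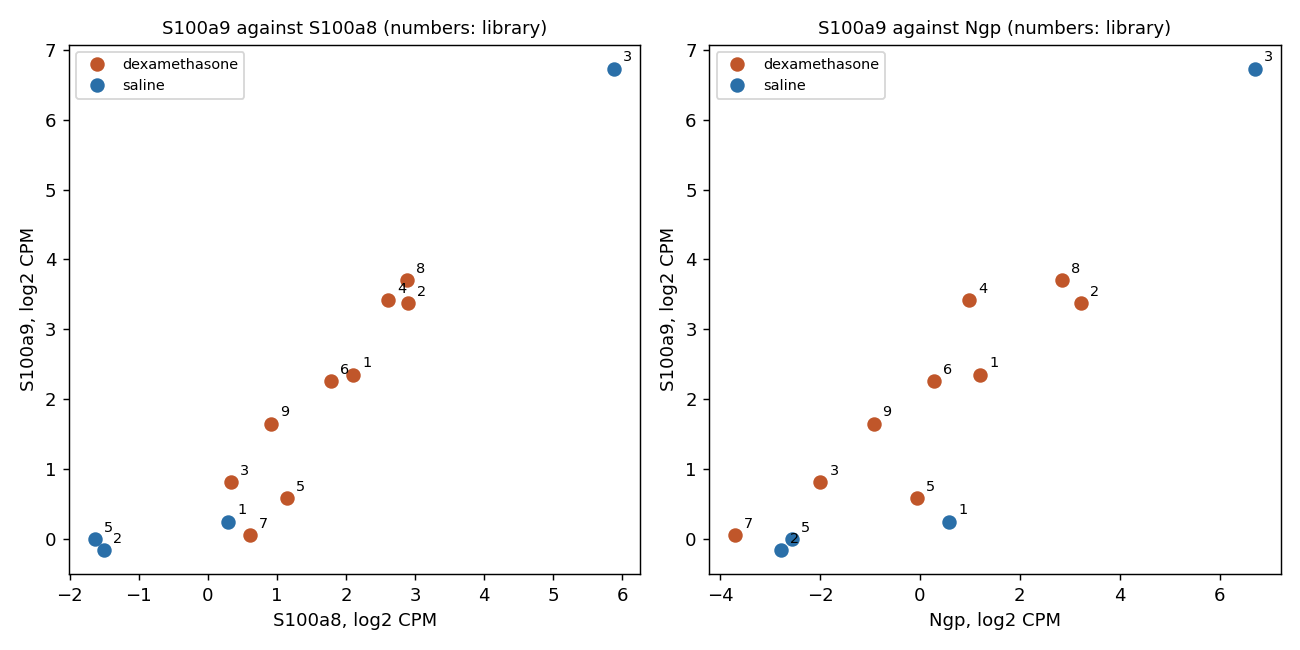
S100a9 against S100a8 (left) and against Ngp (right), in log2 CPM per library, with dexamethasone in orange, saline in blue and the library number beside each point. Saline library 3 lies alone at the upper right of both panels, at 6.73 for S100a9, and dexamethasone libraries 2, 4 and 8 come next in S100a9.

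Other neutrophil genes did not move as a block. Of 29 measured, 8 were higher and 4 lower, with a median log2 fold change of -0.07, beside 25.2% and 22.9% of all genes. The share higher is thus near that of all genes. Lrg1, a secreted glycoprotein of neutrophil granules and other cells, was 3.87-fold higher, Clec4d, a myeloid lectin receptor, 4.30-fold, Adam8, a membrane protease, 2.10-fold and Padi4, the histone citrullinating enzyme of neutrophil traps, 2.09-fold (adjusted p of at most 0.0006 each, limma). Among those that were lower, Cebpe, a transcription factor of granule formation, Mmp25, a membrane protease, and Pglyrp1, a peptidoglycan-binding granule protein, had log2 fold changes of -1.66, -1.49 and -1.60. Without saline library 3, 10 were higher and 3 lower, Cebpe no longer among them, and the median was 0.45. Of these 29 genes, 12 were highest of all 13 libraries in saline library 3. Summed, the 29 stood at 8.06 to 8.62 log2 CPM in dexamethasone libraries, 6.96 to 7.50 in saline libraries 1, 2 and 5 and 8.72 in saline library 3. The most abundant genes carried this sum, and they differed between libraries. Under dexamethasone, Lrg1 and Adam8 led, with means of 6.87 and 6.15 log2 CPM. In saline library 3 Ngp led, at 6.70, and Lrg1 was at 4.45. Like sums therefore do not stand for like amounts of neutrophil transcripts.

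Signals that call neutrophils into tissue were mostly higher. Of 10 measured attractants, growth factors and their receptors, 7 were higher and 0 lower by limma, with a median log2 fold change of 1.58, beside 25.2% higher, 22.9% lower and a median of 0.01 over all genes. Leaving out saline library 3, 8 were higher, beside 22.8% of all genes. Il1b, the inflammatory cytokine interleukin 1 beta, was at 2.65 ± 0.88 log2 CPM under dexamethasone and 0.28 ± 0.61 under saline (SD, n = 9 and 4), 5.16-fold higher. C5ar1, the receptor for complement C5a, was 2.32-fold higher and Tnf 1.66-fold. Of the ligands of Cxcr2 in this list, Cxcl1, Cxcl2 and Cxcl5 had log2 fold changes of 1.94, 2.16 and 2.64, each called, at low levels. Ppbp, another such ligand, had a log2 fold change of 0.48 and did not pass (adjusted p of 0.698, limma). Cxcl12, which retains neutrophils in marrow, had a log2 fold change of -0.06, and Ltb4r1 of 0.36, neither of which passed. The gene added without saline library 3 was Ppbp, a platelet chemokine that was higher in that library than in any other.

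Of 6 other measured genes with S100 names, 2 were higher and 1 lower, shares near the 25.2% and 22.9% of all genes. S100pbp, among the 6, encodes a protein that binds an S100 protein and is not of the family, and it was not called. S100a10, the partner of annexin A2, was 1.60-fold higher and S100a16 1.34-fold, while S100a1, the S100 protein of striated muscle, was 1.17-fold lower (adjusted p of at most 0.0011 each, limma), and the same 3 calls held without saline library 3. Of 18 receptors and binding partners of S100 proteins, 10 were higher and 1 lower, with a median log2 fold change of 0.36, beside the same 25.2%, 22.9% and 0.01 over all genes. Anxa1 was 1.80-fold higher, Anxa2 1.57-fold, Cd36, a fatty acid receptor, 1.94-fold, and Tlr4, a receptor for calprotectin, 1.84-fold.

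Markers of other cells were counted beside the 25.2% higher and 22.9% lower of all genes, and their part in the S100 results was not tested. With 8 to 16 genes in each list, a count that differs from those shares by a few genes says little. Of 16 macrophage and monocyte markers 5 were higher and 3 lower, and summed they stood at 11.38 to 11.77 log2 CPM in dexamethasone libraries, 11.12 to 11.67 in saline libraries 1, 2 and 5, and 11.34 in saline library 3. Of 8 skin markers 3 were higher, summing to 4.81 to 5.43 in dexamethasone libraries, 4.52 to 4.66 in saline libraries 1, 2 and 5 and 4.91 in saline library 3. All 15 lymphocyte markers were lower, summing to 2.77 to 4.12 in dexamethasone libraries and 5.62 to 6.10 in saline libraries. Of 12 mature fibre markers 6 were lower and of 10 fibroblast markers 1 was lower, and of 10 endothelial markers 2 were higher and 1 lower. Of 10 markers of eosinophils, mast cells and basophils, 1 was higher and 4 lower. Of 12 red cell and platelet markers, 1 was higher and 1 lower, and 7 were highest of all 13 libraries in saline library 3.

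Likeness to S100a8 across the 13 libraries was ranked by the root mean square difference of log2 CPM centred on each gene's mean. Only 13027 of the 14911 measured genes were ranked. Ppbp and Camp, with negative mean log2 CPM in both groups, were not among them. The ranking therefore does not name the closest of all measured genes. Among ranked genes outside the 10, the closest were Cd177, Ltf, Ngp, Igha and Prtn3, at 1.07, 1.28, 1.29, 1.46 and 1.48. Among the 10 genes S100a9, at 0.62 from S100a8, and Mmp8, at 1.00, were closer still, and the median over genes was 1.92. Cd177 is a neutrophil surface protein, Ltf encodes lactoferrin and Prtn3 proteinase 3, both of granules, and Igha is the constant region of immunoglobulin A. Each of the 5 was higher in saline library 3 than in any other saline library, which the measure weighs heavily. Those most like S100a6 among the same ranked genes were Snhg5, Tbc1d10a, Pxdc1, Ppib and Arpc3, at 0.078 to 0.088, with S100a4 at 0.146, S100a11 at 0.153 and a median over genes of 0.257.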

How the data were processed

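Whole injured muscle of 13 mice gave 1 polyA-enriched stranded library each, and groups came from the labels. Reads were counted with featureCounts 2.0.1 on mm10 and handled with limma 3.50.1, per the submitters' processing notes. The aligner is not given in the sources used here. What the authors deposited was log2 CPM per mouse, with log2 fold changes, p-values, t statistics and B scores of their own comparison. A second deposited table, of 14970 genes, holds 1 column of a mouse with no sample here, which was not used. Low values fell on steps that gave back whole reads for 100% of values within 0.01, as reads plus 0.5 scaled to CPM.

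Log2 CPM was compared with limma 3.58.1 (R 4.3.3) using a trend in the prior variance, two-sided tests and Benjamini-Hochberg adjustment over 14911 genes at 0.05. Single genes also had an exact permutation test over 715 splits (smallest p of 0.0014), or 220 without saline library 3. Counting error alone is not given as an interval, since reads are not separate molecules. The offset affects the folds of low genes. The 10 genes, the lists and the tests were chosen with earlier results of these data known. From each list, up to 4 genes with the smallest adjusted p and a mean log2 CPM of at least 0 were named, and others named, such as Ibsp, Cxcl1, Cxcl2, Cxcl5, Ppbp, Cebpe, Mmp25, Pglyrp1 and Cxcl12, were chosen after their values were seen. Some list genes are counted but not reported by name here. Promoters matched for all 10 genes through gene identifiers. The fit was tested on simulated data. Among 42 same-group pairs of libraries the chi-square per gene was at least 7.22, so each counted as 1 sample. Alternatives were the second table, log2 of CPM plus 1, filters at mean log2 CPM of 0 and 1, median centring, quantile normalisation, no trend, robust priors, library weights, voom, rank sum tests, the replicate block and each library left out. Figures were drawn with matplotlib 3.10.9.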

Additional observations from a re-analysis of the deposited data

Results flagged for a closer look

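In saline library 3, S100a9 stood at 6.729 log2 CPM and Mcemp1 at 1.084, each so far above the next saline library, relative to the range of the 4, that it passed Dixon's criterion for a single outlying value. Chance flags about 1 in 20 groups, and 2 of 20 groups were flagged, both through the same library. That library was already known to be high when the genes were chosen, so the flags restate this and are no separate evidence. S100a8 in that library, at 5.89, did not pass because saline library 1 was itself apart from the other saline libraries.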

How the results depend on the processing

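The count of the 10 genes that were higher ran from 3 to 7, and of those that were lower from 0 to 2, over the omission of each library in turn. With saline library 3 left out, 7 were higher and 0 lower by limma, and also without an intensity trend, without dexamethasone library 4 too, and without dexamethasone libraries 2 and 8 too. By the exact rank sum test without saline library 3, 0 were lower, and over all genes 2117 were higher and 2134 lower. Those are the numbers of genes whose groups did not overlap without that library, so the test could call no gene with any overlap. By voom without that library 1 was lower. In all 13 libraries 1 was lower by the exact rank sum test and with the filters on low genes at a mean log2 CPM of 0 and of 1; Retnlg missed the threshold in the rank sum test and was removed by the filters. The omissions combined with another choice were added after seeing the data. S100a4 and S100a11 kept their calls under all 31 alternatives, and S100a6 under 30 of 31, the rank sum test without saline library 3 being the exception (adjusted p of 0.0857). The groups of S100a6 overlapped there, so that test could not call it. S100a8 was at -0.18 and S100a9 at -0.84 with library weights, neither past the threshold. Mmp8 changed its call in 16 of 30 alternatives, and the cause was not tested. Replicate numbers are not stated to pair the mice. Deviations of same-numbered libraries correlated at -0.01, -0.07, -0.03 and 0.12 over genes, which cannot exclude a pairing. With the replicate block on the 8 libraries that share numbers, 1 of the 10 genes was lower, as without the block. Drug and bone formation cannot be told apart, and single saline libraries decide the calls of S100a8, S100a9, Mcemp1, Retnlg, Csf3r and Mmp8, the last also lost without any of 6 dexamethasone libraries.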
